A study of Homo sapiens with 2 samples.

Results

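The genes described here encode the aminoacyl-tRNA synthetases of the cytosol and of the mitochondria, and 3 scaffold proteins of the complex that holds several of the cytosolic enzymes. They were chosen by name, and comprised 19 cytosolic synthetases, 16 mitochondrial synthetases and the scaffold proteins AIMP1, AIMP2 and EEF1E1. Synthetase symbols ending in 2 were taken as mitochondrial, and KARS1 and GARS1, which serve both compartments, were kept with the cytosolic enzymes. All 38 genes had at least 1 probe on the array, with 46 probes in all, among 17244 genes that could be named. Every one of the 38 was measured, as were 16157 of all named genes.

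The study asked which transcripts change in SKOV3, a human ovarian adenocarcinoma cell line, when the transcription factor RUNX2 is suppressed. The knockdown clone, cl-sh3, carried a short hairpin RNA against RUNX2 in the pLKO.1-puro vector, delivered by lentivirus and kept under puromycin selection. The control clone carried the same vector with a scramble sequence and is called mock-transfected in the labels. Total RNA of both clones was labelled with Cy3 or Cy5, mixed, and read in both colours on whole human genome arrays from Agilent. In hybridization 1 the control was labelled with Cy3 and cl-sh3 with Cy5, and in hybridization 2 the dyes were exchanged. The labels name the same pair of clones for both hybridizations, which were therefore counted as 1 replicate. Each group is 1 clone, so a difference that follows from the picking of clones and a difference that follows from RUNX2 cannot be told apart, and no test or p-value is given. In bulk RNA, fewer expressing cells and less RNA per cell cannot be told apart either.

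An aminoacyl-tRNA synthetase joins an amino acid to the tRNAs that read its codons, and the charged tRNA is then carried to the ribosome by an elongation factor. Human cells make separate sets of these enzymes, all from nuclear genes: one set charges the tRNAs of the cytosol, and the other is imported and charges the tRNAs encoded by mitochondrial DNA. The enzymes belong to unrelated structural classes, I and II, and part of the cytosolic ones assemble around scaffold proteins into the multi-synthetase complex. Many cytosolic synthetase genes are described targets of ATF4, the transcription factor of the amino acid response, which binds a composite C/EBP-ATF response element (CARE) together with C/EBP proteins.

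Every ratio below is log2 of cl-sh3 over control after background correction and loess normalization, so that a value of -1 is 2-fold lower in cl-sh3. Where a gene had several probes, the brightest stood for it. Over the 16157 measured genes the median of the mean log2 ratio was 0.01. The median difference between the hybridizations, without regard to sign, was 0.23, and 95% of genes differed by less than 0.64. RUNX2 itself had log2 ratios of -2.04 and -1.30 on its brightest probe, and its other probes, at -0.23 and 0.02 in the mean, were near 0. Those other probes were dimmer, at mean log2 intensities of 7.58 and 8.36 against 10.4. The dimmest was well above background in the control in 1 hybridization only. The study reports lower RUNX2 mRNA and protein in cl-sh3 by RT-PCR and Western blot. All 8 markers chosen for SKOV3, among them KRT8, KRT18 and PAX8, were well above background in both clones. Of these, 6 were higher in cl-sh3 in both hybridizations, and ERBB2 was lower, at -0.86 and -0.45. Of the 5 measured markers of leukocytes, endothelium and fibroblasts, 4 were also well above background in both clones in both hybridizations, and none was at least 2-fold changed in both. These markers of other cells were dim, with a median log2 intensity of 8.04 and a range from 7.36 to 9.82. The SKOV3 markers had a median of 14.6, with MUC16 the dimmest at 7.68.

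Most cytosolic synthetases were lower in cl-sh3, by up to 2.79-fold for MARS1, and the mitochondrial synthetases lay near the middle of the array. A gene was called when it was at least 2-fold lower, or at least 2-fold higher, in both hybridizations. On the lower side, MARS1, CARS1 and TARS1 met this rule, 3 of 19 cytosolic genes, against 0 of 16 mitochondrial genes and 0 of 3 scaffold genes. Of all measured genes, 0.526% met it on that side. No member was at least 2-fold higher, where the share over all genes was 0.142%. The study's own list of changed genes, made on these same hybridizations, holds the 3 called members, so that list is not independent evidence of their direction. CARS1 had an accession that only the study's lists of changed genes could name, so its call was close to fixed in advance. The share over all genes is therefore not a like comparison for CARS1.

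Direction alone gave a similar order. Of the 19 cytosolic genes, 12 were lower in both hybridizations and 5 were higher in both, while 28.4% of all genes were lower in both and 30.9% were higher in both. Of the 16 mitochondrial genes, 7 were lower in both, 4 were higher in both and 5 changed sign between the hybridizations. The median log2 ratio of the cytosolic genes was -0.55 in hybridization 1 and -0.45 in hybridization 2, and the median of their means was -0.29. For the mitochondrial genes these medians were -0.05, 0.04 and -0.04. Without the 3 called genes, the other 16 cytosolic genes had a median of -0.27, with 9 lower and 5 higher in both hybridizations.

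**Figure D1:**
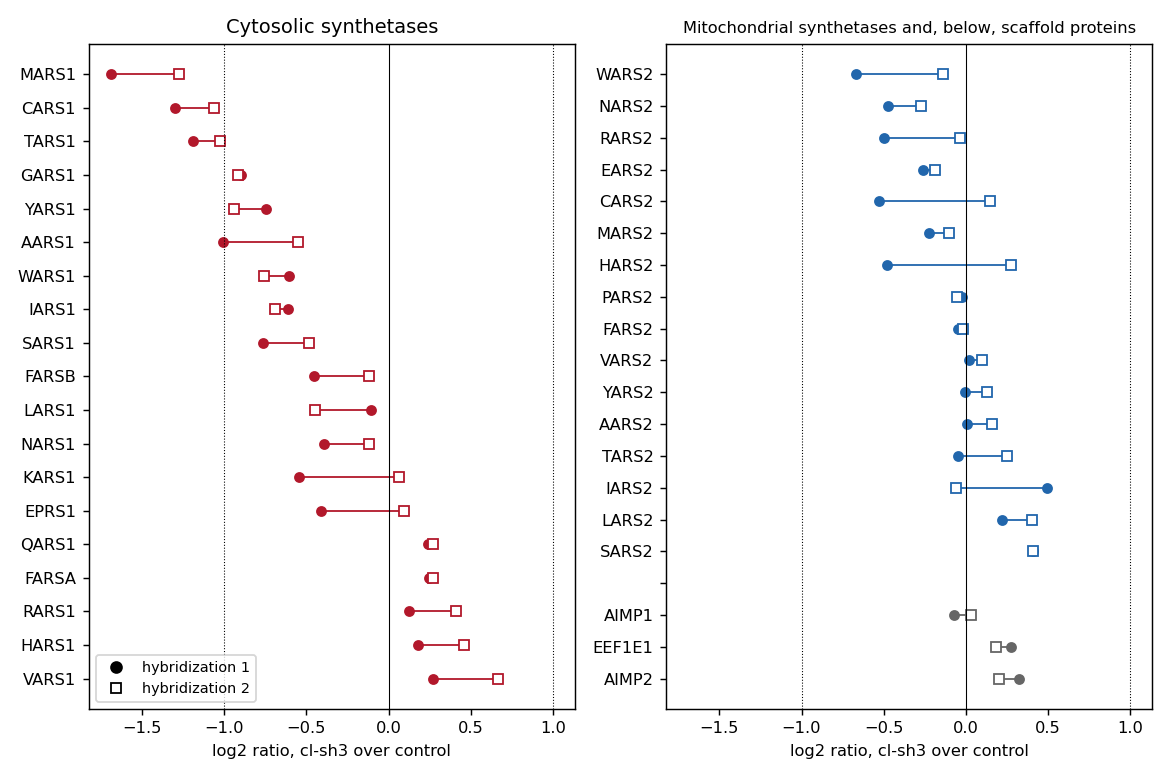
Log2 ratio of cl-sh3 over control for each of the 38 genes, with hybridization 1 as a filled circle and hybridization 2 as an open square joined by a line, and dotted lines at a 2-fold difference. The 3 cytosolic genes at the top left, MARS1, CARS1 and TARS1, lie beyond the 2-fold line in both hybridizations, and every mitochondrial and scaffold gene lies inside it.

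MARS1 encodes the cytosolic methionyl-tRNA synthetase, which charges both initiator and elongator tRNAs. Its log2 ratios were -1.69 and -1.27, a mean 2.79-fold lower level in cl-sh3, and it stood 32nd from the lowest of 16157 genes. In normalized log2 intensity, its probe read 14.4 in both hybridizations for the control, and 12.7 and 13.1 for cl-sh3. The levels of the clones did not overlap, but the gene was called on these same readings, so this is not separate evidence. A dimmer second probe for the same transcript read -0.83 and -0.45, which was lower in both hybridizations but not 2-fold. Since the probes of MARS1 differed, the size of its difference depends on the probe.

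CARS1, the cysteinyl-tRNA synthetase, had log2 ratios of -1.30 and -1.06 and was 2.27-fold lower in the mean. Its control levels were 10.48 and 10.23, and its cl-sh3 levels were 9.18 and 9.17. TARS1, the threonyl-tRNA synthetase, had ratios of -1.19 and -1.03 and was 2.16-fold lower, from 15.3 and 15.4 in the control to 14.1 and 14.3. In both genes each cl-sh3 level lay below each control level, again on the readings that gave the call. The second hybridization of each lay close to the 2-fold line. Only 1 probe was present for each of them.

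**Figure D2:**
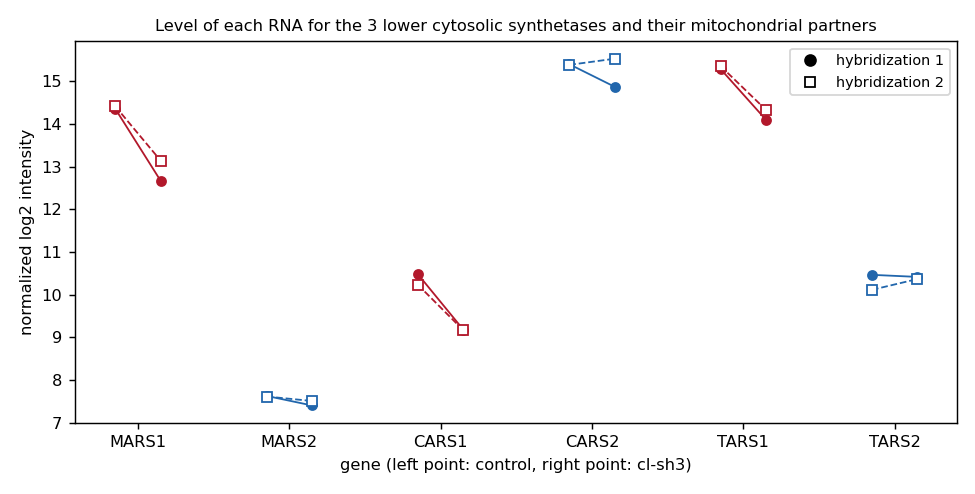
Normalized log2 intensity of the control clone (left point) and of cl-sh3 (right point) for the 3 called cytosolic genes (red) and their mitochondrial partners (blue), with hybridization 1 as filled circles and solid lines and hybridization 2 as open squares and dashed lines. The red lines drop by more than 1 unit in both hybridizations, whereas MARS2, CARS2 and TARS2 do not; heights of different genes are not comparable, since each comes from its own probe.

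Below these 3 came 6 cytosolic genes that were lower in both hybridizations by a smaller amount. GARS1, the glycyl-tRNA synthetase, read -0.90 and -0.92 and YARS1, the tyrosyl enzyme, read -0.75 and -0.94. AARS1, the alanyl enzyme, read -1.01 in hybridization 1 but -0.55 in hybridization 2. WARS1 (tryptophan) stood at -0.60 and -0.76, IARS1 (isoleucine) at -0.61 and -0.69, and SARS1 (serine) at -0.77 and -0.48. In each of these 6 genes both hybridizations gave a lower level in cl-sh3, and AARS1 alone passed the 2-fold line, in hybridization 1. By their mean they ranked from 191 to 633 of 16157, counted from the lowest. FARSB, the beta subunit of the phenylalanyl enzyme, with -0.45 and -0.12, LARS1 (leucine), with -0.11 and -0.45, and NARS1 (asparagine), with -0.39 and -0.12, were also lower in both, with values that differed between hybridizations by about as much as their size.

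KARS1 and EPRS1 changed sign between the hybridizations. KARS1, the lysyl enzyme of both compartments, read -0.55 and 0.06, and EPRS1, which charges both glutamate and proline in a single fused protein, read -0.41 and 0.10. The other 5 were higher in cl-sh3 in both hybridizations. QARS1 (glutamine), at 0.24 and 0.27, and FARSA, the alpha subunit of the phenylalanyl enzyme, at 0.25 and 0.27, repeated closely. RARS1 (arginine) read 0.12 and 0.41, HARS1 (histidine) 0.18 and 0.46, and VARS1 (valine) 0.27 and 0.67, the highest mean of all 38 genes at 0.47. The subunits of the phenylalanyl enzyme thus stood on opposite sides of 0.

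A second probe was present for LARS1, FARSB and HARS1 among the other cytosolic genes. The second LARS1 probe gave -0.60 and -0.46, lower again. The second FARSB probe gave -0.35 and 0.19, and the second HARS1 probe -0.05 and 0.32, so that neither kept its direction in both hybridizations.

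The cytosolic enzymes were next split by structure. Class I enzymes (9 genes) had a median of -0.65 and class II enzymes (9 genes) one of -0.29, with 6 lower in both hybridizations in each class. EPRS1 belongs to both classes and was left out of this split. The 7 members of the multi-synthetase complex had a median of -0.24, with MARS1 as the called gene, 3 lower in both and 2 higher in both. The 12 free enzymes had a median of -0.65, with 9 lower and 3 higher in both.

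The 13 cytosolic synthetases listed as described ATF4 targets had a median of -0.68, and 11 of them were lower in both hybridizations, including the 3 called genes. The exceptions were EPRS1, which changed sign, and VARS1, which was higher in both. The 6 cytosolic genes outside that list had a median of 0.26, with FARSB lower in both and FARSA, HARS1, QARS1 and RARS1 higher in both. The list was compiled from general knowledge with earlier results of these data known, and the difference between the listed and the other genes is given as a description.

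The mitochondrial genes spanned a narrower range, from -0.40 for WARS2 to 0.41 for SARS2 in the mean. WARS2, the tryptophanyl enzyme, read -0.67 and -0.14, and NARS2, the asparaginyl enzyme, read -0.47 and -0.27. RARS2 (arginine) read -0.50 and -0.04, EARS2 (glutamate) -0.26 and -0.19, and MARS2 (methionine) -0.22 and -0.10, all lower in both hybridizations. PARS2 (proline) and FARS2 (phenylalanine) were also lower in both, at -0.04 and -0.03 in the mean, which is within the median difference between hybridizations.

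The mitochondrial genes higher in both hybridizations were SARS2 (serine), at 0.41 and 0.41, LARS2 (leucine), at 0.22 and 0.40, AARS2 (alanine), at 0.01 and 0.16, and VARS2 (valine), at 0.02 and 0.10. The remaining 5 genes changed sign. CARS2 (cysteine) read -0.53 and 0.14, HARS2 (histidine) -0.48 and 0.28, IARS2 (isoleucine) 0.49 and -0.06, TARS2 (threonine) -0.05 and 0.25, and YARS2 (tyrosine) -0.00 and 0.13. For CARS2, HARS2 and IARS2, and also for WARS2 and RARS2, the hybridizations lay further apart than any difference between the clones in the mean of a mitochondrial gene. Of the mitochondrial genes with a second probe, CARS2 read -0.20 and 0.03, PARS2 0.07 and 0.23, and VARS2 0.07 and 0.50 on it.

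The scaffold proteins were not lower in cl-sh3. AIMP2 read 0.32 and 0.20 and EEF1E1 read 0.27 and 0.18, both higher in both hybridizations. AIMP1 read -0.07 and 0.03 on its brighter probe and -0.13 and -0.10 on the other. Their median of 0.23 lay above that of the 7 enzymes of the same complex.

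Cytosolic and mitochondrial enzymes for the same amino acid could be set against each other within each hybridization in 17 pairs covering 16 amino acids. The difference, cytosolic minus mitochondrial log2 ratio, was negative in both hybridizations in 9 pairs, positive in both in 5 and of changing sign in 3. Its median was -0.39 in hybridization 1 and -0.62 in hybridization 2, and the median of the mean differences was -0.28. EPRS1 was set against both EARS2 and PARS2, and FARS2 against both FARSA and FARSB, so these pairs share a gene. QARS1 has no separate mitochondrial partner.

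On the brightest probes, the largest pair differences fell on methionine and threonine. MARS1 lay below MARS2 by -1.47 and -1.17 log2 units, and TARS1 lay below TARS2 by -1.14 and -1.28. These were the only pairs at least 2-fold apart in both hybridizations, and no pair was 2-fold apart in the other direction. MARS2 was the dimmest of the 38 genes, at a mean log2 intensity of 7.54. The scanner software's own ratios were -0.43 and -0.51 for MARS2 and -1.60 and -1.40 for MARS1. On those ratios the methionine pair was less than 2-fold apart in hybridization 2. With all probes of a gene averaged, an alternative chosen after seeing the data, the methionine difference was -1.04 and -0.76, smaller in the mean than those of threonine, cysteine, serine and tyrosine, and threonine was the 1 pair left beyond 2-fold. On the brightest probes again, serine followed methionine and threonine with -1.17 and -0.89, cysteine with -0.77 and -1.21, and tyrosine with -0.74 and -1.07. Isoleucine (-1.101 and -0.63), alanine (-1.01 and -0.71), leucine (-0.33 and -0.85) and FARSB against FARS2 (-0.41 and -0.10) completed the negative pairs on these probes. With all probes averaged, FARSB against FARS2 changed sign, at -0.35 and 0.05.

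The order ran the other way for arginine, histidine, valine, asparagine and FARSA. RARS1 lay above RARS2 by 0.62 and 0.45, HARS1 above HARS2 by 0.66 and 0.18, and VARS1 above VARS2 by 0.25 and 0.57. FARSA lay above FARS2 by 0.29 and 0.28, and NARS1 above NARS2 by 0.08 and 0.15. In the asparagine pair both genes were lower in cl-sh3. Tryptophan was similar, with WARS1 and WARS2 both lower and a difference of 0.06 and -0.62. HARS1 and HARS2 are head-to-head neighbours on chromosome 5 in the RefSeq annotation, and HARS1 was higher and HARS2 lower in hybridization 1, while both were higher in hybridization 2.

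**Figure D3:**
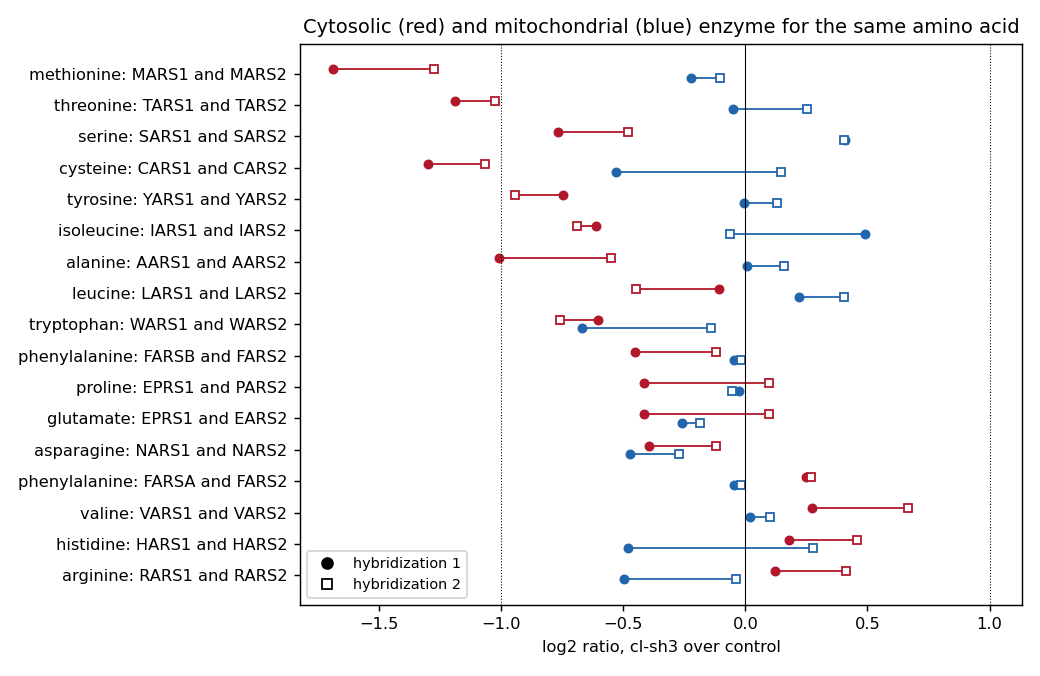
Log2 ratio of cl-sh3 over control for the cytosolic (red) and the mitochondrial (blue) enzyme of each amino acid, ordered by their difference, with hybridization 1 as filled circles, hybridization 2 as open squares and dotted lines at a 2-fold difference. From methionine down to leucine every red point lies left of its blue partner in the same hybridization, and in the lowest 3 rows, valine, histidine and arginine, every red point lies right of it.

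The start of each gene was searched for the CARE core, TGATGCAA, on both strands, because described binding of ATF4 to cytosolic synthetase genes goes through this element. The windows came from RefSeq on GRCh38.p14, from 250 bases before to 50 bases after each annotated start, and held 33 of the 38 genes. LARS1, VARS1, YARS1, AARS2 and VARS2 were not matched. The letters were present in 6 of 16 cytosolic genes, 0 of 14 mitochondrial genes and 0 of 3 scaffold genes, against 0.866% of all 35116 windows. The 6 matches are printed 5′ to 3′ on the strand of the gene, 28 bases each with the core in capitals, because they hold all 3 called genes and show where the same letters lie relative to each start.
MARS1, chr12:57488054-57488081, plus strand: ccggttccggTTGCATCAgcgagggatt
CARS1, chr11:3057408-3057435, minus strand: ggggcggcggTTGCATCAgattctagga
TARS1, chr5:33440957-33440984, plus strand: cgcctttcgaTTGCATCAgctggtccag
AARS1, chr16:70289676-70289703, minus strand: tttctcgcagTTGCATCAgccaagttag
IARS1, chr9:92293693-92293720, minus strand: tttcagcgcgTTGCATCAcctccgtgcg
NARS1, chr18:57621805-57621832, minus strand: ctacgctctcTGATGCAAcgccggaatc

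In NARS1 the core read TGATGCAA along the gene, and in the other genes it read TTGCATCA, its reverse complement. Its first base lay 4 bases before the annotated start in MARS1, 2 before it in CARS1, 13 before it in IARS1 and 187 before it in AARS1. In TARS1 it began at base 3 and in NARS1 at base 15 of the transcript. In 5 of the 6 genes the first base of the core thus lay within 15 bases of the start. A match of letters is a description and does not show that a factor bound there.

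All 6 cytosolic genes with the core were lower in cl-sh3 in both hybridizations, with a median of -0.94 and a range from -1.48 (MARS1) to -0.26 (NARS1). The 10 cytosolic genes whose windows lacked it ranged from -0.91 (GARS1) to 0.32 (HARS1), with a median of -0.20 and 4 lower in both. The ranges overlapped, since GARS1, WARS1, SARS1 and FARSB lay below NARS1 without an exact match. GARS1 held a sequence that differs inside the core and fits the looser pattern TGATGNAA, printed here because it is the lowest gene without the core.
GARS1, chr7:30594835-30594862, plus strand: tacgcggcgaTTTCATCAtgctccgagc

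The looser pattern includes the exact core and occurred in 3.62% of all windows. Among the 14 mitochondrial genes with a window it was found in YARS2 alone, whose ratios were -0.00 and 0.13. Outside the synthetases, 106 measured genes held the exact core. Of these, 45.3% were lower in both hybridizations and their median was -0.07. HERPUD1 and IL20RB, named after their values were seen, were the 2 that met the 2-fold rule. For the looser pattern, 403 measured genes outside the synthetases held it, of which 28.3% were lower in both with a median of -0.00, against 29.0% and 0.01 for genes without it. Of these 403 genes, 6 met the 2-fold rule on the lower side, or 1.49%, against 0.458% of genes without the pattern. ASNS, HERPUD1 and IL20RB were among these 6, ASNS too being named here after its values were seen. Among the 12742 measured genes with a window but without the core, 28.9% were lower in both and 0.479% met the 2-fold rule on the lower side.

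**Figure D4:**
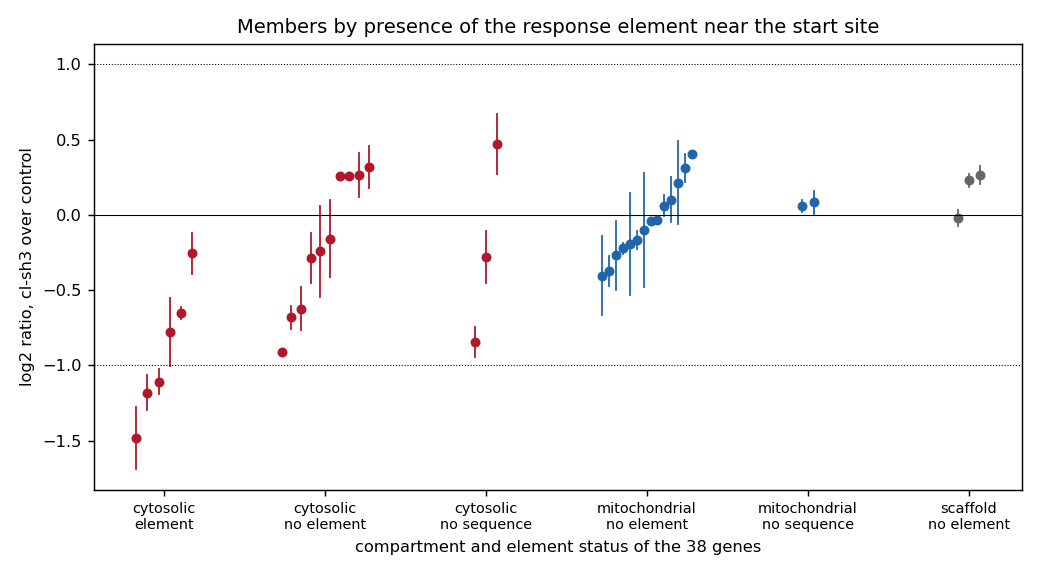
Mean log2 ratio of cl-sh3 over control for the 38 genes, with a line from one hybridization to the other, grouped by compartment and by whether the CARE core was present near the start, absent, or not searched because no RefSeq window was matched. The 6 cytosolic genes with the core all lie below 0, from -1.48 to -0.26, and the 10 without it lie on both sides of 0.

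Other steps of tRNA charging and maturation were described by lists. None of the 4 mitochondrial charging partners, such as the amidotransferase subunit QRSL1, was at least 2-fold changed in both hybridizations, and their median was -0.07. The 6 genes of selenocysteine charging had a median of -0.17, and both measured genes that remove mischarged amino acids, DTD1 and DTD2, were lower in both hybridizations, at -0.18 and -0.32 in the mean. The 13 genes of tRNA maturation and export had a median of -0.17, against -0.29 for the cytosolic synthetases. Of them, 8 were lower and 3 higher in both hybridizations, where the shares over all genes were 28.4% and 30.9%. The higher genes, ELAC2, POP1 and RPP30, had means of 0.16, 0.25 and 0.23 on their brightest probes. TSEN15, a subunit of the tRNA splicing endonuclease, was the called gene of this list, where the share over all genes was 0.526%. It read -1.63 and -1.09, and its dimmer probe read -0.72 and -0.61. Named after their values were seen, XPOT, the exporter of tRNAs from the nucleus, read -0.85 and -0.87 on its brighter probe and -1.52 and -0.86 on the other, TRNT1, which adds the CCA end, read -1.02 and -0.61, and ELAC1 read -0.63 and -0.70. On the brightest probes their means lay in the range of the cytosolic genes from GARS1 to SARS1, and 61.5% of this list was lower in both hybridizations against 63.2% of the cytosolic synthetases.

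The elongation factors, which deliver charged tRNA to the ribosome, exchange nucleotides on the delivering factor, or act in translocation and ribosome recycling, held no called gene in either compartment. The 6 cytosolic factors had a median of 0.01, with 2 lower and 1 higher in both hybridizations. Named after their values were seen, EEF1A1, which delivers charged tRNA, and EEF2, which acts in translocation, differed. EEF1A1 was lower in both hybridizations on each of its 4 probes. It read -0.27 and -0.96 on the brightest, and its other probes had means of -0.91, -0.86 and -0.95. EEF2 was the higher gene, at 0.64 and 0.67. The 4 mitochondrial factors had a median of -0.31, with 3 lower in both.

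Genes of the amino acid response included larger differences than the synthetases on their brightest probes. ATF4 read -1.54 and -1.30, and -0.93 and -0.62 on its dimmer probe. ASNS, the asparagine synthetase that ATF4 is known to activate, read -2.06 and -2.10. DDIT3, a stress transcription factor, read -2.19 and -1.94, and TRIB3, a pseudokinase, read -3.27 and -2.62, and -1.08 and -0.89 on its dimmer probe. Thus 4 of the 6 genes of this list met the 2-fold rule on the lower side, where the share over all genes was 0.526%. With all probes averaged, also chosen after seeing the data, 3 met it, without ATF4. This list was chosen with earlier results of these data known. The study also names ATF4, DDIT3 and TRIB3 among its downregulated nodes from the same hybridizations. The counts for this list are therefore a description and not independent evidence. EIF2AK4, which senses uncharged tRNA, read 0.10 and 0.45, and GCN1, the partner it needs, read -0.41 and -0.08. Whether the lower ATF4 RNA has a part in the lower synthetase RNAs was not tested.

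The group medians were recomputed under 11 other ways of processing the same hybridizations. The cytosolic median lay between -0.55 and -0.23 and below the mitochondrial median, which lay between -0.05 and 0.04, in every one of them. MARS1 missed the 2-fold rule when all probes of a gene were averaged, CARS1 missed it without background correction, and TARS1 missed it with median centring of each array.

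**Figure D5:**
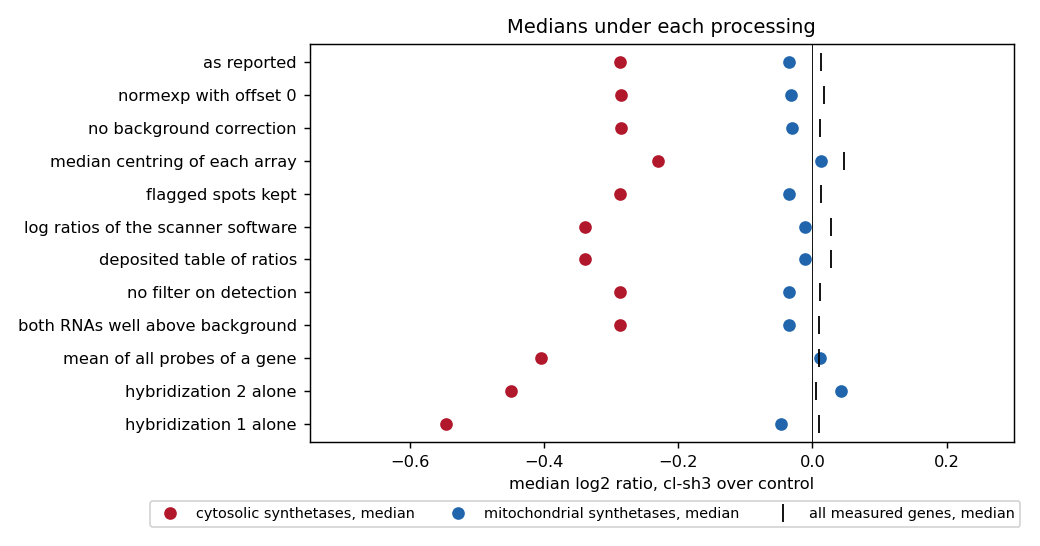
Median log2 ratio of cl-sh3 over control for the 19 cytosolic (red) and 16 mitochondrial (blue) synthetases and for all measured genes (tick) under each processing. The red points lie left of the blue points in every row, between -0.55 and -0.23.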

How the data were processed

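The authors deposited, for each of the 2 hybridizations, the spot intensity in both channels read by Agilent's Feature Extraction (version 10.5.1.1 in the file headers, 8.5.1.1 in the submitters' processing notes), with outlier and detection flags and that software's log10 ratio. They also deposited a table of log10 ratios, equal to the software's values to within 0.00500. From the intensities, background was corrected by normexp (offset 50) on median pixel values, control spots were removed from 45015 spots, flagged spots (153 and 144) were left out, and ratios were normalized within arrays by loess in limma 3.58.1 under R 4.3.3. Later steps ran in Python 3.11.15 (pandas 2.3.3, numpy 2.4.6, matplotlib 3.10.9). A probe entered (36065 of 41000 did) if the software flagged cl-sh3, or the control, as well above background in both hybridizations, on 50% or more of the probe's spots.

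The files pair probes with accessions. RefSeq, in the assembly GRCh38.p14, named 18023 of 19228 RefSeq accessions. A further 6, those of CARS1 and RUNX2 among them, were named through the study's lists of changed genes. Other unmatched accessions stayed unnamed. The arrays were annotated on hg18, and no probe coordinates are given. All 38 genes are described, those at least 2-fold changed and the amino acid pairs in full. Other genes are named when at least 2-fold changed in a list, or as the target or ATF4. QRSL1, DTD1, DTD2, EIF2AK4 and GCN1 are named outside this rule, as members of short lists. KRT8, KRT18, PAX8, ERBB2 and MUC16 are named as cell markers. XPOT, TRNT1, ELAC1, EEF1A1, EEF2, HERPUD1 and IL20RB were named after their values were seen, as were ELAC2, POP1 and RPP30. The members and lists were chosen with earlier results of these data known. The normalization and the fold rule were tested on simulated data. The planted changes were larger than those of the called members, so that test does not bear on calls near the 2-fold line. Alternatives were background and normalization settings, filters, probe averaging, the deposited ratios and each hybridization alone. Precision is limited by the number of arrays, whose differences show technical error alone. Some genes are not reported here.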

Additional observations from a re-analysis of the deposited data

How the results depend on the processing

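The count of 3 cytosolic and 0 mitochondrial genes at least 2-fold lower held in 7 of 11 alternatives. It was 2 cytosolic genes without background correction, with median centring and with all probes of a gene averaged, and 4, with AARS1 added, in hybridization 1 alone. Median centring gave 4 mitochondrial genes lower in both, a scaffold median of 0.31 and a cytosolic minus mitochondrial median of -0.24, against -0.25 as reported. That difference was -0.33 with the software's ratios and -0.33 with the deposited table. Averaging all probes gave -0.42 for it, -0.40 for the cytosolic median and -0.63 for RUNX2. With each hybridization alone, the cytosolic median ranged from -0.55 to -0.45, the mitochondrial median from -0.047 to 0.042, their difference from -0.50 to -0.49, and the mitochondrial genes below 0 from 8 to 11. Of 418 alternative values of single members, 404 kept their sign. Not all of the 11 alternatives were free to differ, so these counts overstate how far the results were tried. All 46 probes passed each detection filter, and the deposited table repeats the software's ratios. Averaging leaves genes with 1 probe unchanged. The causes were not tested. No paired analysis was possible because there is 1 pair of clones.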
